A study of Mus musculus with 6 samples.

Results

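The genes described here are the 187 genes, of 37620 in the deposited tables, that were higher in mouse erythroid progenitors with dexamethasone (Dex) than in untreated progenitors and lower again when the drug GW7647 was given with Dex. They were chosen on CPM (a gene's share of its library's reads, scaled so that every library has the same total), with 0.1 added and averaged over the 2 libraries of a group. A member had at least 1 CPM with Dex, a Dex over untreated ratio of at least 2 and a Dex plus GW7647 over Dex ratio of at most 0.67. Of 193 genes that met these limits, 6 (Il1rl1, Il1rl2, Hbb-y, Spi1, Tnfaip3 and Hdc) were left out by name. Abcg1, a cholesterol exporter that was also to be left out, had a GW7647 ratio of 0.729 and did not meet them. Because the Dex rise and the fall with GW7647 chose the members, both are given as descriptions, and where counts of edgeR calls in these 2 contrasts include members, they are no evidence about them.

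The cells, burst-forming unit erythroid progenitors (BFU-E), came from livers of E14.5 embryos of 129/SvImJ mice. By the labels, cells carrying lineage markers, Sca-1, CD16/32, CD41 or CD34 were depleted with magnets, and c-kit positive cells with the 10% lowest CD71 were sorted. The 3 groups, with 2 libraries each, were cells given 100 nM Dex together with 10 µM GW7647, cells given 100 nM Dex, and untreated cells. The treated cells were kept in a serum-free medium to which stem cell factor (100 ng/mL), IGF-1 (40 ng/mL) and erythropoietin (2 U/mL) had been added. The labels give the treatment as 12 h, while headers in 1 deposited table read 36 h, and they do not say plainly whether the untreated cells were cultured. Time in culture and Dex can therefore not be told apart in the contrast with untreated cells. No group had GW7647 alone, and nothing says that the libraries of a group came from separate cultures, so p-values measure only the spread between these libraries, which may be technical.

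Dex is a synthetic glucocorticoid. The glucocorticoid receptor moves to the nucleus when it binds the hormone and switches genes on or off there, and in stress erythropoiesis it keeps BFU-E dividing as progenitors. GW7647 is an agonist of PPARα, a nuclear receptor that pairs with RXR and is best known for switching on fatty acid oxidation. In immune cells both receptors are also known for holding down inflammatory genes, in part by interfering with NF-κB and AP-1.

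The libraries held 46716806 and 35970286 counts (Dex plus GW7647), 54174801 and 45058773 (Dex), and 37577414 and 39791302 (untreated), so 1 CPM stood for 35.97 to 54.17 reads. Genes of the labelled cell type were present: 18 erythroid markers summed to 10857 and 10818 CPM with Dex plus GW7647, 11023 and 11092 CPM with Dex, and 15422 and 15276 CPM in untreated cells. Of these 18, all tested, 3 were higher and 12 lower with Dex than untreated (edgeR quasi-likelihood test, adjusted p under 0.05). With GW7647 2 were higher and 2 lower than with Dex alone. Klf1, a lead erythroid transcription factor and 1 of the 18, had 334 and 325 CPM with Dex plus GW7647, 372 and 315 CPM with Dex and 335 and 364 CPM in untreated cells. Mast cell and basophil markers summed to 186 and 183 CPM with Dex plus GW7647, 319 and 313 CPM with Dex, and 164 and 166 CPM in untreated cells. These sums hold Hdc, which met the limits and was left out by name, and the member Cd200r3. Hdc averaged 118.8 CPM with Dex plus GW7647, 207 CPM with Dex and 38.0 CPM in untreated cells. Cd200r3 averaged 16.4, 46.3 and 4.66 CPM in the same order. Hdc alone rose with Dex by more than the sum did, so the rest of the list together did not rise. Of 15 tested markers 5 were higher and 8 lower with Dex than in untreated cells, while 9 were lower and 0 higher with GW7647 than with Dex alone (edgeR quasi-likelihood test, adjusted p under 0.05). Over all 14125 tested genes the shares called were 25.5% higher and 26.0% lower with Dex than untreated, and 2.15% higher and 7.58% lower with GW7647 than with Dex. Every list count given here and later is to be read against these shares, and it includes the list's members, whose calls in both contrasts follow from how they were chosen. None of the 18 mast cell and basophil markers was at 0 in every library, but Fcer1a, the receptor chain that binds IgE, stood at 0 CPM in both Dex plus GW7647 libraries. Neutrophil markers summed to 112 and 113 CPM with Dex plus GW7647, 191 and 182 CPM with Dex, and 348 and 369 CPM in untreated cells. Monocyte markers summed to 17.1 CPM in each Dex plus GW7647 library, 25.7 and 27.2 CPM with Dex, and 63.6 and 62.8 CPM in untreated cells. Megakaryocyte markers summed to 346 and 334 CPM with Dex plus GW7647, 526 and 473 CPM with Dex, and 932.5 and 988 CPM in untreated cells. Lymphoid and dendritic, hepatoblast, and endothelial and stromal markers summed to between 1.31 and 32.1 CPM in any library, and the hepatoblast markers summed to 5.27 and 5.17 CPM with Dex plus GW7647, 7.33 and 6.90 CPM with Dex, and 1.62 and 1.31 CPM in untreated cells. The part of such cells in the members' values was not tested, and in bulk libraries fewer cells of a type and less RNA per cell cannot be told apart.

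Among 11892 genes with at least 1 CPM with Dex, 649 (5.46%) met the limit on the Dex ratio and 593 (4.99%) the limit on the GW7647 ratio. Of the 649, 29.7% met both, counting those left out by name. The other 456 had a median Dex plus GW7647 over Dex ratio of 0.863, and only 1 raised gene had a ratio of 1.5 or more. Among the members the Dex over untreated ratio ran between 2.01 and 61.9, with a median of 3.54, and the GW7647 ratio between 0.187 and 0.669, with a median of 0.556. Their level with Dex spanned 0.920 to 1080.2 CPM before the 0.1 was added, with a median of 6.75 CPM. There were 24 members at 50 CPM or more with Dex and 84 below 5 CPM, and the lowest Dex library of any member still held 37 reads.

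**Figure D1:**
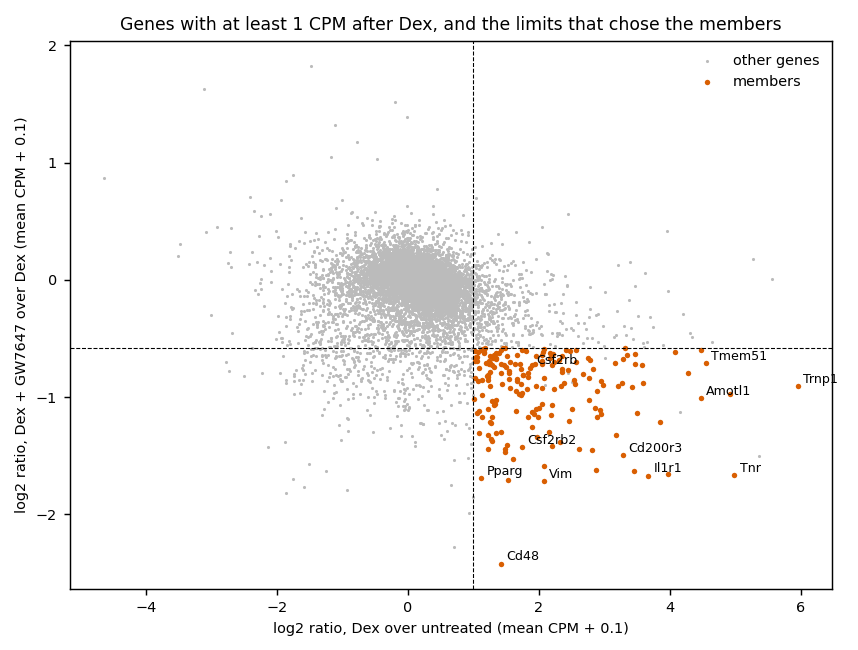
Each point is 1 of 11892 genes with at least 1 CPM after Dex (mean of 2 libraries plus 0.1), with the log2 ratio of Dex over untreated across and the log2 ratio of Dex plus GW7647 over Dex upward. Dashed lines mark the limits of 2 and 0.67, orange points are the 187 members, and the 6 grey points inside the same corner are the genes left out by name.

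The limits cut through a continuous spread. Just inside the limit on Dex stood Col5a1 at a ratio of 2.01, Gm5637 at 2.04 and Rgs19 at 2.06, and just outside it Sapcd1 at 1.99, Plvap at 1.97 and Gpsm3 at 1.96. Just inside the limit on GW7647 stood Vwa7 at 0.669, Clca3a1 at 0.668 and Tmem14a at 0.667, and just outside it Tent5a at 0.671, Klhl6 at 0.672 and 1700006J14Rik at 0.672. In all 187 members both Dex libraries lay above both Dex plus GW7647 libraries and above both untreated libraries, and 118 members met the limits in every combination of single libraries. Choosing on the libraries numbered 1 alone gave 221 genes and on those numbered 2 alone 191 genes. The 122 genes found both ways were 55.2% of the 221 and 63.9% of the 191.

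For most members the level with both drugs lay between the Dex and the untreated level. Setting the untreated mean at 0% and the Dex mean at 100%, the Dex plus GW7647 mean stood at a median of 36.7% of the rise, with quartiles at 24.5% and 47.6%. It stood at 50% or more for 32 members, at 25 to 50% for 106, at 0 to 25% for 37 and below the untreated mean for 12. The range was from -29.5% for Cd48 to 64.7% for Ndufa4l2. The limit on GW7647 caps this share, and the cap is lower where the Dex ratio is small. At near GW7647 ratios of 0.552 and 0.562, Nckap1l kept 14.6% and Neurl3 48.6%, with Dex ratios of 2.11 and 6.82. Shares of genes or groups with unlike Dex ratios are therefore no like comparison.

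Dex plus GW7647 against untreated cells is the contrast that the choice did not use, although the values of both groups entered it. The limit on Dex favoured low untreated values, and the limit on GW7647 low values with both drugs. A member with a GW7647 ratio near the median of 0.556 lies above untreated cells through the limits alone. The shares over all tested genes are therefore no like comparison, and the counts and p-values serve as a description. With the edgeR quasi-likelihood test and Benjamini-Hochberg adjustment over all 14125 tested genes, 135 members were higher with both drugs than untreated (24.7% of all tested genes were), 7 were lower (25.1% of all tested genes were) and 45 were not called. All 187 passed the filter on low counts, which the required level with Dex favours. The median log2 difference was 0.83 over the members and 0.02 over all tested genes. Both Dex plus GW7647 libraries lay above both untreated libraries in 162 members (53.3% of tested genes) and below both in 7 (27.0% of tested genes). In the 2 contrasts that chose the members, 187 were called higher with Dex than untreated (25.5% of tested genes) and 160 lower with GW7647 than with Dex alone (7.58% of tested genes), and nothing is read from those counts. The clearest calls above untreated were Aqp8 (log2 difference 2.51 ± 0.07, adjusted p = 5.2e-09 by edgeR), Anxa2 (1.69 ± 0.06, adjusted p = 1.7e-08), Amotl1 (3.46 ± 0.12, adjusted p = 1.8e-08), Fam198b (1.62 ± 0.06, adjusted p = 1.9e-08) and Tmem51 (3.85 ± 0.15, adjusted p = 3.0e-08).

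**Figure D2:**
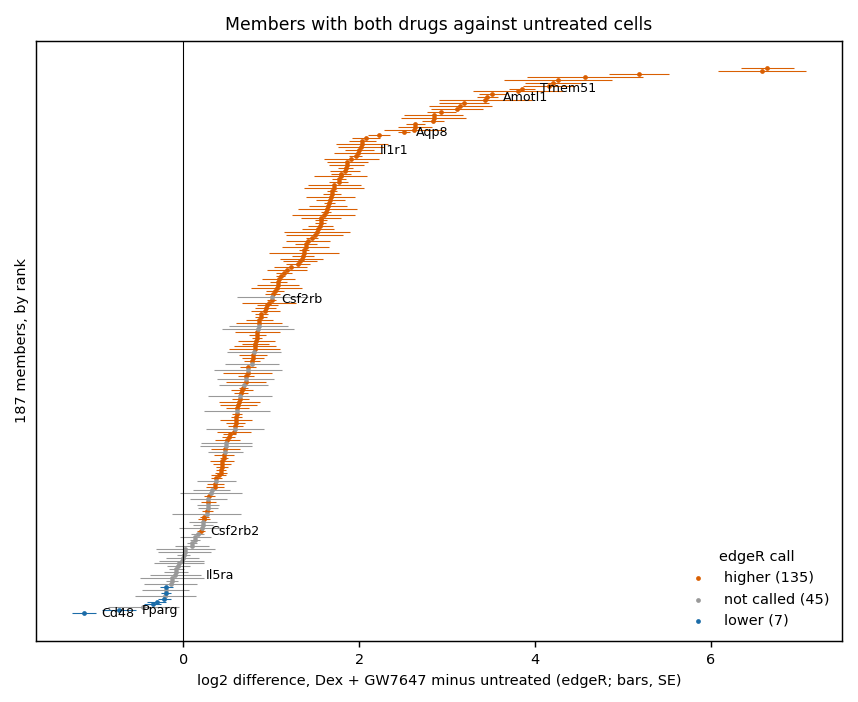
Log2 difference between Dex plus GW7647 and untreated cells for the 187 members in rank order, with bars of 1 SE from the edgeR fit on 2 libraries a group. The 135 members called higher are orange, the 45 not called grey and the 7 called lower blue, and Cd48 lies farthest below 0.

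Among the 7 members called below untreated cells were Cd48, Pparg, Eps8, Dock2, Gpr174 and Myo1g. Cd48, a small surface protein of blood cells that binds the receptor CD244, had 2.98 and 2.72 CPM with Dex plus GW7647, 14.51 and 16.8 CPM with Dex and 6.09 and 5.45 CPM in untreated cells. The libraries with both drugs were the lowest of the 6 (log2 difference to untreated -1.13 ± 0.13, adjusted p = 6.4e-05 by edgeR). Pparg, the nuclear receptor of fat cells and macrophages and a relative of the GW7647 target, had 0.942 and 0.806 CPM with Dex plus GW7647, 3.12 and 2.97 CPM with Dex and 1.38 and 1.31 CPM in untreated cells. Its log2 difference between both drugs and untreated cells was -0.73 ± 0.19 (adjusted p = 0.01 by edgeR). Eps8, Gpr174, Dock2 and Myo1g were lower by a smaller margin, with edgeR log2 differences of -0.35 ± 0.10 for Eps8 (adjusted p = 0.015), -0.30 ± 0.11 for Gpr174 (adjusted p = 0.044), -0.20 ± 0.06 for Dock2 (adjusted p = 0.017) and -0.20 ± 0.07 for Myo1g (adjusted p = 0.047). With libraries scaled by their totals instead of by TMM, 2 members were called lower in place of 7, and with DESeq2 only Cd48 was. Leaving out either Dex plus GW7647 library left 2 such calls, and leaving out either untreated library left 3. Cd48 was the 1 gene of the 7 called under every alternative run.

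By known role, 96 members were put into 13 groups after their values had been seen, with Pparg in 2 of them, and the groups serve to order the description. Receptors for blood cell cytokines are taken up first. Csf2rb encodes the beta chain shared by the receptors for GM-CSF, IL-3 and IL-5. It had 638 and 648 CPM with Dex plus GW7647, 1087 and 1073 CPM with Dex and 288 and 303 CPM in untreated cells, the highest CPM of any member on a scale that also grows with transcript length. The GW7647 ratio was 0.595, and with both drugs Csf2rb stayed above untreated cells (log2 difference 1.0 ± 0.05, adjusted p = 9.9e-08 by edgeR). Its neighbour Csf2rb2, the mouse copy that serves IL-3 alone, had 175 and 176 CPM with Dex plus GW7647, 472 and 469.9 CPM with Dex and 139 and 142 CPM in untreated cells. It was pulled back further, to 10.5% of the rise against 44.3% for Csf2rb, and remained a little above untreated cells (log2 difference 0.20 ± 0.04, adjusted p = 0.0039 by edgeR). The 2 genes are nearly identical in sequence, so the division of reads between them is uncertain.

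The alpha chains that pair with these beta chains were mostly not members. Il5ra, the IL-5 receptor alpha chain, was one, at 0.428 and 0.5 CPM with Dex plus GW7647, 1.51 and 1.35 CPM with Dex and 0.426 and 0.477 CPM in untreated cells. Both drugs together and no drug gave overlapping values (log2 difference -0.09 ± 0.29, adjusted p = 0.83 by edgeR). Eosinophil markers, a list to which Il5ra also belongs, summed to 2.5 and 2.75 CPM with Dex plus GW7647, 5.67 and 5.33 CPM with Dex, and 14.1 and 14.2 CPM in untreated cells, so the list as a whole was not higher with Dex. The GM-CSF receptor alpha chain Csf2ra had 11.1 and 12.6 CPM with Dex plus GW7647, 12.1 and 11.7 CPM with Dex and 8.99 and 9.25 CPM in untreated cells. It did not differ by the test between Dex plus GW7647 and Dex (log2 difference -0.003 ± 0.09, adjusted p = 0.99 by edgeR). The IL-3 receptor alpha chain Il3ra had 3 and 2.33 CPM with Dex plus GW7647, 3.47 and 2.77 CPM with Dex and 3.09 and 3.14 CPM in untreated cells, and the Dex and untreated libraries overlapped.

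Both receptors for interleukin 1 were members. Il1r1, the chain that signals, had 3.32 and 3.7 CPM with Dex plus GW7647, 11.6 and 11.1 CPM with Dex and 0.719 and 0.88 CPM in untreated cells. The Dex over untreated ratio was 12.8, the GW7647 ratio 0.314, and 25.6% of the rise remained. With both drugs it was still above untreated cells (log2 difference 2.00 ± 0.16, adjusted p = 5.4e-06 by edgeR). Il1r2, the decoy that binds interleukin 1 without signalling, had 0.578 and 0.556 CPM with Dex plus GW7647, 1.22 and 1.22 CPM with Dex and 0.319 and 0.276 CPM in untreated cells. The accessory chain Il1rap, which Il1r1 needs to signal, was not a member, at 9.29 and 8.73 CPM with Dex plus GW7647, 7.68 and 8.61 CPM with Dex and 7.11 and 7.11 CPM in untreated cells. Il12rb2, a chain of the IL-12 receptor, had 3.92 and 4.09 CPM with Dex plus GW7647, 5.39 and 7.86 CPM with Dex and 2.26 and 1.88 CPM in untreated cells. Its Dex libraries were unequal, and the higher of them carried much of the ratio. The cytokine Il4 was near the lower limit, at 0.321 and 0.473 CPM with Dex plus GW7647, 1.11 and 0.932 CPM with Dex and 0.346 and 0.477 CPM in untreated cells.

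Of 47 tested genes on a wider list of cytokine and interleukin receptors, 15 were higher and 15 lower with Dex than untreated, and 13 were lower and 0 higher with GW7647 than with Dex alone (edgeR, adjusted p under 0.05), the 6 members among them included by choice. The median log2 difference of GW7647 with Dex against Dex was -0.32 over that list and 0.00 over all tested genes. Kit, the stem cell factor receptor and a known glucocorticoid-raised gene in these progenitors, was raised by Dex but not a member, with 303 and 303 CPM with Dex plus GW7647, 303 and 299 CPM with Dex and 93 and 93.7 CPM in untreated cells. Its level with both drugs was on a par with that with Dex (log2 difference 0.02 ± 0.04, adjusted p = 0.82 by edgeR). Epor, the erythropoietin receptor, was not raised, with 178 and 172 CPM with Dex plus GW7647, 190.3 and 165 CPM with Dex and 151 and 168 CPM in untreated cells.

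**Figure D3:**
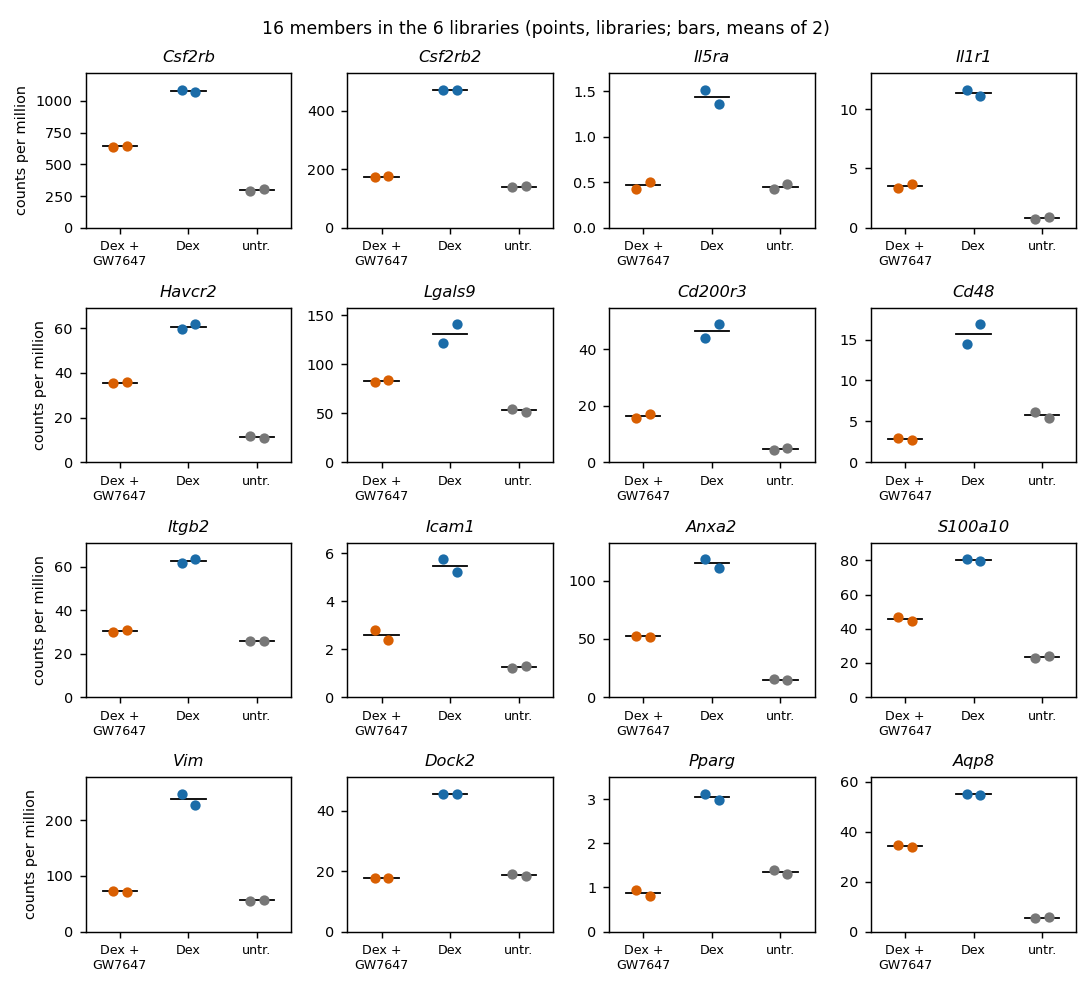
CPM of 16 members in each of the 6 libraries, on a linear axis from 0 for each gene, with bars at the mean of the 2 libraries of a group. In every panel both Dex libraries lie above the other 4, and the Dex plus GW7647 libraries of Cd48, Dock2 and Pparg lie below both untreated libraries.

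Surface proteins of immune cells and lectins formed a group of 12 members, with the lysosomal protein Laptm5 placed among them. Havcr2 (TIM-3), an inhibitory receptor of T cells and myeloid cells, had 35.5 and 35.8 CPM with Dex plus GW7647, 59.8 and 61.7 CPM with Dex and 11.6 and 10.7 CPM in untreated cells. Its ligand galectin-9, Lgals9, had 81.5 and 83.4 CPM with Dex plus GW7647, 121 and 140.4 CPM with Dex and 54.8 and 51.5 CPM in untreated cells. Receptor and ligand were thus both members, with 49.4% and 37.7% of the rise left. Laptm5, a lysosomal protein of blood cells that sends immune receptors to be degraded, had 204 and 206 CPM with Dex plus GW7647, 337 and 339.7 CPM with Dex and 84.3 and 91 CPM in untreated cells. Cd80, a costimulatory ligand for CD28 and CTLA-4, had 20.1 and 20.1 CPM with Dex plus GW7647, 33.7 and 34.7 CPM with Dex and 4.71 and 4.8 CPM in untreated cells.

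Receptors of the CD200R family, which take part in restraining or activating myeloid cells, made up 3 of these 12. Cd200r3, known from mast cells and basophils and on the marker list for them, had 15.6 and 17.1 CPM with Dex plus GW7647, 43.9 and 48.8 CPM with Dex and 4.31 and 5 CPM in untreated cells. It lay 9.77 times higher with Dex and at 0.354 of that with GW7647, the largest Dex ratio and the smallest GW7647 ratio of the 3. Cd200r1, the inhibitory receptor for CD200, had 18.2 and 18.2 CPM with Dex plus GW7647, 25.1 and 29.9 CPM with Dex and 8.22 and 8.02 CPM in untreated cells. Cd200r4 had 10.4 and 10.6 CPM with Dex plus GW7647, 27.8 and 29.5 CPM with Dex and 4.9 and 4.27 CPM in untreated cells, and reads may be shared within the family. On the same marker list 5 of 15 tested genes were higher with Dex than untreated (Cd200r3 and Il4, both members, and Hdc, Tph1 and Tpsb2) and 8 were lower, 2 of which were picked here after their values were seen. Cpa3, the mast cell carboxypeptidase, had 11.5 and 11.5 CPM with Dex plus GW7647, 15.5 and 17.1 CPM with Dex and 62.2 and 62.9 CPM in untreated cells. Cma1, a mast cell chymase, was the other and had 1.37 and 1.33 CPM with Dex plus GW7647, 5.13 and 4.93 CPM with Dex and 18.8 and 18.3 CPM in untreated cells. Both fell with Dex (log2 differences -2.07 ± 0.06 and -2.01 ± 0.08, adjusted p = 8.1e-09 and 4.9e-08 by edgeR), and both were lower again with GW7647. Besides Cd48, the remaining members of the surface group were Cd22, Pirb, Clec10a and Ly75, these 4 all below 4 CPM with Dex.

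Promoter windows of the members were searched for the letters of several factors, and the letters of PU.1, a factor of myeloid genes, are shown here. PU.1 was not singled out when the searches were planned, and no test was made of its share. The windows are those of RefSeq on GRCm38.p6, from 250 bases before to 50 bases after each transcript start, and 137 members had at least 1. The PU.1 letters GAGGAAGT, on either strand, stood in windows of 12 members (8.76%), in 3.90% of the 333 matched Dex-raised genes that were not pulled back, in 3.72% of the 10118 matched tested genes and in 3.20% of all 32851 windows. The 4 of these 12 with the highest CPM with Dex are printed below, on the gene's strand, with the PU.1 letters in capitals (ACTTCCTC where they lie on the other strand).
Csf2rb2 (minus strand, chr15:78305672-78305971): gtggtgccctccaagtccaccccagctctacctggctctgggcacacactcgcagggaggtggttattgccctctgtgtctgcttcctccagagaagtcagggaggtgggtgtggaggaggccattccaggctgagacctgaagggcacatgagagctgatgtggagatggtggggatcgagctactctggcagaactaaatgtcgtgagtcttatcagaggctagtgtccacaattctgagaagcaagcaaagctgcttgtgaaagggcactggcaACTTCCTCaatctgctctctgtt
Havcr2 (plus strand, chr11:46454681-46454980): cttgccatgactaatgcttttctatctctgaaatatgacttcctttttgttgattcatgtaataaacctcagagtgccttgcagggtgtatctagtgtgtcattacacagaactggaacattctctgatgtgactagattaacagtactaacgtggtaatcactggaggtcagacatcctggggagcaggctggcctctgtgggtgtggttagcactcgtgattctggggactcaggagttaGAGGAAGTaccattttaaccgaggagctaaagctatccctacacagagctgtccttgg
Ccdc88b (minus strand, chr19:6858162-6858461): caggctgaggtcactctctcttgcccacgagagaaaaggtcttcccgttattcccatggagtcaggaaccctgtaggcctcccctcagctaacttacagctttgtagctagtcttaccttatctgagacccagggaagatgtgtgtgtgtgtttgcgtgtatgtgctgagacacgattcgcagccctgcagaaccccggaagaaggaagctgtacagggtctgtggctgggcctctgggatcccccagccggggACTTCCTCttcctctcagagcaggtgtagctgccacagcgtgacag
Rgs19 (minus strand, chr2:181693928-181694227): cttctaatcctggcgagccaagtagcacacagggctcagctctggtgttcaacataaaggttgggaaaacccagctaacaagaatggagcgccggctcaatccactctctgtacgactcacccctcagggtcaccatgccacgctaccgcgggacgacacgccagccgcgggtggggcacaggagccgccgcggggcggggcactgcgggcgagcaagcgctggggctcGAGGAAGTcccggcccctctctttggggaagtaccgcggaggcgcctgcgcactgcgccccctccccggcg
In Havcr2 and Rgs19 the letters began 8 and 21 bases before the start, and in Ccdc88b and Csf2rb2 they lay within the transcribed part of the window. The other 8 members with these letters were Dusp5, Eng, F13a1, Fgd3, Ly6g6d, Pirb, Rel and Trim5. Spi1, which encodes PU.1 and was left out by name, averaged 33.2 CPM with Dex plus GW7647, 61.8 CPM with Dex and 14.4 CPM in untreated cells. A part of PU.1 in the members' values was not tested. The windows of members had a median GC content of 55.7% and a median of 9 CpG dinucleotides. Raised genes that were not members, here with those left out by name, had 59.3% and 15, and all tested genes 60.7% and 20. The part of base composition in the shares was not tested.

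Other letters were searched in the same windows, on both strands. The GATA letters AGATAA stood in 16.1% of the matched members, 12.3% of the raised genes not pulled back and 8.20% of tested genes. The AP-1 letters TGANTCA stood in 10.2% of the members, 11.1% of the raised genes not pulled back and 6.07% of tested genes. The palindromic glucocorticoid response element, searched as 1 exact spelling, stood in none of the 137 members and none of the 333 others. That spelling stood in only 1 of the 10118 matched tested genes, so its absence from both sets tells little. The shorter letters AGAACA, 1 arm of that element and so contained in it, stood in 15.3% of the members, 13.8% of those others and 14.98% of tested genes. The STAT letters TTCNNNGAA stood in 8.76% of the members and 8.27% of tested genes, and the CRE letters TGACGTCA in 1.46% and 3.56%. The PPAR direct repeat (DR1) was found in the window of Bco1, a carotenoid-cleaving enzyme, and in 6 tested genes in all. Of 2 spellings of the NF-κB site, 1 was found in the window of Neurl3, a ubiquitin ligase, and in 23 tested genes in all. The other was found in none of the members' windows and in 8 tested genes. These are matches of letters in a short window and show neither binding nor its absence.

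G protein coupled receptors and their partners made up 9 members. C3ar1, the receptor for complement fragment C3a, had 4.73 and 5.06 CPM with Dex plus GW7647, 10.2 and 12 CPM with Dex and 1.57 and 1.26 CPM in untreated cells. Gpr174, a lysophosphatidylserine receptor of lymphocytes, had 5.8 and 5.92 CPM with Dex plus GW7647, 17.9 and 20.8 CPM with Dex and 6.87 and 6.46 CPM in untreated cells, and was 1 of the 7 members below untreated cells with both drugs. Gna14, a G alpha subunit of the Gq class, had 20.5 and 19.7 CPM with Dex plus GW7647, 34.4 and 35.9 CPM with Dex and 5.64 and 5.23 CPM in untreated cells. Rgs19, which speeds the shut-off of G alpha subunits, had 19.1 and 18.4 CPM with Dex plus GW7647, 29.3 and 29.8 CPM with Dex and 14.1 and 14.501 CPM in untreated cells, close to the limit on the Dex ratio. Rasd1, a small GTPase first known as a dexamethasone-induced gene, had 4.35 and 4.28 CPM with Dex plus GW7647, 6.94 and 6.57 CPM with Dex and 0.559 and 0.477 CPM in untreated cells. It kept 60.9% of its rise, the most of the 9. The complement receptor C5ar2, the acid-sensing Gpr65, the UDP-glucose receptor P2ry14 and the muscarinic receptor Chrm4 had Dex ratios between 2.23 and 2.71 and GW7647 ratios between 0.539 and 0.652. On the wider list of G protein coupled receptors, with 39 tested, 10 were higher and 21 lower with Dex than untreated, and 13 were lower and 1 higher with GW7647 than with Dex (edgeR, adjusted p under 0.05).

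**Figure D4:**
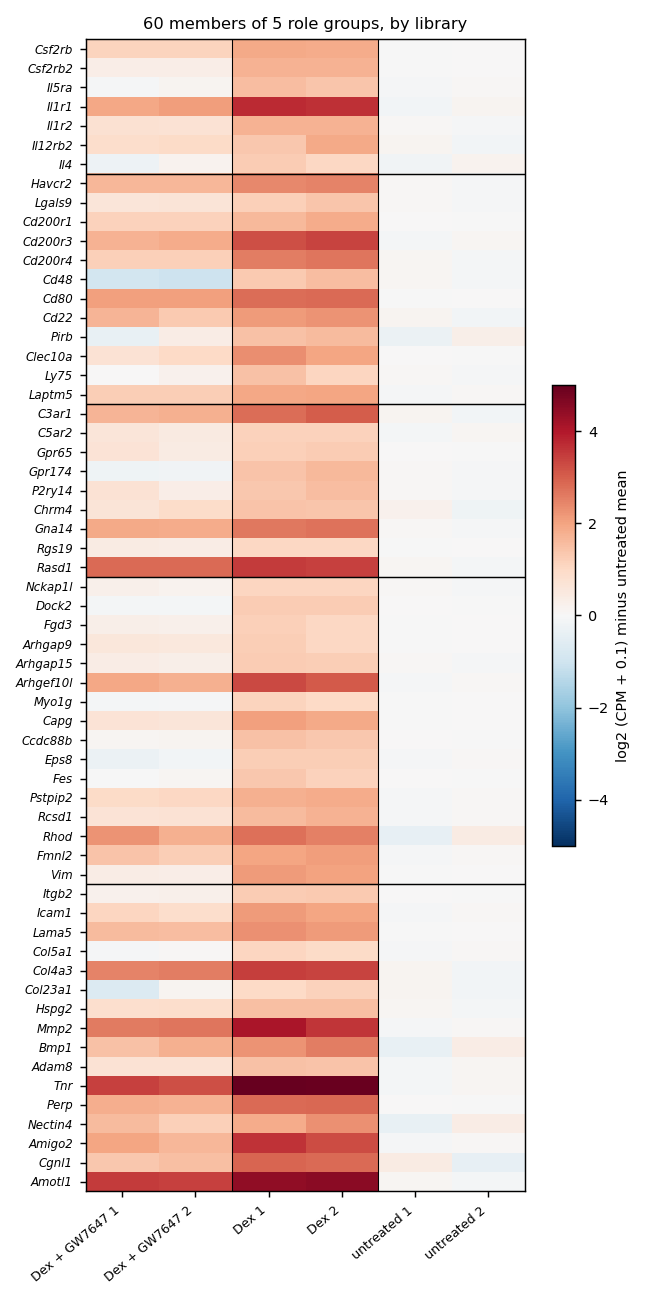
Log2 of CPM plus 0.1 in each library, less the mean of the untreated libraries, for 60 members of 5 role groups. From the top these are cytokine receptors, immune surface proteins and lectins, G protein coupled receptors, actin and cell shape genes, and adhesion and matrix genes. Red is above and blue below untreated cells with the colours ending at 5, and the Dex plus GW7647 columns are less red than the Dex columns in every row.

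Genes of the actin cytoskeleton and cell shape, 16 members, had the smallest median share of the rise left of the 13 groups. It was 18.4%, against 36.7% over all members. That share also depends on the Dex ratio, and no test was made of groups chosen after the values were seen. Vim, the intermediate filament vimentin, had 72.8 and 71.5 CPM with Dex plus GW7647, 248 and 227 CPM with Dex and 55.7 and 57.1 CPM in untreated cells. It kept 8.73% of its rise, at a GW7647 ratio of 0.304. Nckap1l (HEM1), the blood cell subunit of the WAVE complex that starts branched actin, had 73.4 and 68.6 CPM with Dex plus GW7647, 128 and 129 CPM with Dex and 62.9 and 59.4 CPM in untreated cells. Dock2, the exchange factor that switches on Rac in blood cells upstream of that complex, had 17.7 and 17.7 CPM with Dex plus GW7647, 45.6 and 45.6 CPM with Dex and 19.1 and 18.5 CPM in untreated cells. Capg, which caps actin filaments, had 20.2 and 19.4 CPM with Dex plus GW7647, 52.9 and 47.3 CPM with Dex and 12.4 and 12.9 CPM in untreated cells. For Capg 19% of the rise was left.

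Within the same group Ccdc88b, a scaffold protein of T cells and myeloid cells, had 12.8 and 13.3 CPM with Dex plus GW7647, 33.7 and 31 CPM with Dex and 12.2 and 11.8 CPM in untreated cells. Eps8, which caps and bundles actin, had 5.37 and 5.92 CPM with Dex plus GW7647, 15.5 and 15.6 CPM with Dex and 6.31 and 6.91 CPM in untreated cells. Fes, a tyrosine kinase of myeloid cells, had 11.1 and 12 CPM with Dex plus GW7647, 28.5 and 25.1 CPM with Dex and 11.3 and 11.1 CPM in untreated cells. For these 3 genes and for Dock2 and Myo1g, a membrane-bound myosin of blood cells, the Dex plus GW7647 mean lay between -10.8% and 5.18% of the rise, that is close to or under the untreated level. Arhgef10l, a guanine nucleotide exchange factor, had the largest Dex ratio of the group at 9.07, with 13.3 and 12.2 CPM with Dex plus GW7647, 34.4 and 29.7 CPM with Dex and 3.3 and 3.59 CPM in untreated cells. The GTPase activating proteins Arhgap9 and Arhgap15 kept 38.3% and 19.7%, the exchange factor Fgd3 17.9%, and the small GTPase Rhod 59.1% of the rise.

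Adhesion and matrix genes, also 16, held a receptor and its ligand. Itgb2 encodes CD18, the beta chain of the leukocyte integrins, and had 30.1 and 30.9 CPM with Dex plus GW7647, 61.7 and 63.5 CPM with Dex and 25.7 and 25.7 CPM in untreated cells. Both Dex plus GW7647 libraries lay above both untreated libraries, by a log2 difference of 0.13 ± 0.05 that was not called (adjusted p = 0.074 by edgeR), and with total-count scaling it was 0.25 and called. Icam1, the ligand of those integrins, had 2.78 and 2.39 CPM with Dex plus GW7647, 5.76 and 5.22 CPM with Dex and 1.2 and 1.31 CPM in untreated cells. The alpha chains Itgal and Itgam did not rise with Dex as Itgb2 did. Itgal (CD11a) had 4.54 and 5.06 CPM with Dex plus GW7647, 7.72 and 7.17 CPM with Dex and 10.8 and 11.5 CPM in untreated cells. Itgam (CD11b) had 0.728 and 0.89 CPM with Dex plus GW7647, 1.18 and 1.42 CPM with Dex and 4.28 and 3.92 CPM in untreated cells. Both alpha chains fell with Dex (log2 differences -0.71 ± 0.10 and -1.79 ± 0.17, adjusted p = 1.6e-04 and 1.2e-05 by edgeR). For both, as for Itgb2, the Dex plus GW7647 libraries lay below both Dex libraries. On the list of integrins and leukocyte adhesion genes, 7 of 36 tested were higher and 17 lower with Dex than untreated, and 16 were lower and 0 higher with GW7647 than with Dex (edgeR, adjusted p under 0.05). Itgb2 and Icam1 are 2 of the 7 and of the 16 through the choice of members, and the shares over all tested genes were 25.5% higher and 26.0% lower with Dex, and 7.58% lower and 2.15% higher with GW7647.

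Lama5, a laminin alpha chain of basement membranes, had 179 and 175 CPM with Dex plus GW7647, 291 and 255 CPM with Dex and 57.6 and 60.6 CPM in untreated cells, and kept 54.9% of its rise, the most of this group. Col5a1, a fibrillar collagen chain, had 48.3 and 51.7 CPM with Dex plus GW7647, 105 and 97.1 CPM with Dex and 48.3 and 52.4 CPM in untreated cells, so that with both drugs its libraries stood at the untreated level. Tnr, the matrix protein tenascin-R known from the nervous system, had 1.93 and 1.67 CPM with Dex plus GW7647, 6.11 and 5.73 CPM with Dex and 0.0798 and 0.101 CPM in untreated cells. Amotl1, a junction protein that binds the Hippo pathway factor YAP, had 13.7 and 12.8 CPM with Dex plus GW7647, 26 and 27.8 CPM with Dex and 1.2 and 1.03 CPM in untreated cells. Of the rise, 29.3% was left for Tnr and 47.3% for Amotl1. Perp, a desmosome protein and p53 target, had 25.3 and 24.2 CPM with Dex plus GW7647, 52.4 and 53.6 CPM with Dex and 7.26 and 7.16 CPM in untreated cells. Among matrix enzymes, the gelatinase Mmp2 had Dex and GW7647 ratios of 14.4 and 0.431, the sheddase Adam8 2.69 and 0.609, and the procollagen protease Bmp1 5.11 and 0.59.

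Anxa2 and S100a10, whose proteins form the annexin A2 complex that gathers plasminogen at the cell surface, were both members. Anxa2 had 52.3 and 51.9 CPM with Dex plus GW7647, 119 and 111 CPM with Dex and 15.2 and 14.6 CPM in untreated cells. S100a10 had 46.9 and 44.6 CPM with Dex plus GW7647, 80.8 and 79.7 CPM with Dex and 23 and 24.1 CPM in untreated cells. The shares of the rise left, 37.2% and 39.1%, were near each other, although the Dex ratios were 7.69 and 3.4. Their relative S100a6 had 0.856 and 0.639 CPM with Dex plus GW7647, 2.05 and 2.15 CPM with Dex and 0.958 and 0.653 CPM in untreated cells.

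Growth factor and guidance receptors gave 6 members. Mst1r, the receptor RON for macrophage-stimulating protein, had 1.26 and 0.973 CPM with Dex plus GW7647, 3.75 and 3.73 CPM with Dex and 0.213 and 0.0754 CPM in untreated cells, a Dex ratio of 15.7. Fgfr1, a fibroblast growth factor receptor, had 2.46 and 2.25 CPM with Dex plus GW7647, 5.94 and 4.48 CPM with Dex and 0.665 and 0.528 CPM in untreated cells. Eng (endoglin), a TGF-β co-receptor of blood progenitors and endothelium, had 11.6 and 11.5 CPM with Dex plus GW7647, 21.5 and 19.3 CPM with Dex and 5.56 and 6.33 CPM in untreated cells. Notch3, Epha2 and the semaphorin Sema3e completed the group, with GW7647 ratios of 0.636, 0.555 and 0.455.

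Enzymes and factors of lipid metabolism gave 7 members. None of the 39 genes listed as PPAR targets in fatty acid metabolism, 31 of them tested, was a member. Over all 14125 tested genes 187 were members, so nothing is read from that absence. Alox5, the 5-lipoxygenase that begins leukotriene synthesis, had 64 and 63.9 CPM with Dex plus GW7647, 116 and 116 CPM with Dex and 35.4 and 38.1 CPM in untreated cells. Plin3, a lipid droplet coat protein, had 32.2 and 32 CPM with Dex plus GW7647, 53.5 and 51.5 CPM with Dex and 21.4 and 22.4 CPM in untreated cells. Lpcat2, which makes the lipid mediator platelet-activating factor, had 2.74 and 3.22 CPM with Dex plus GW7647, 7.48 and 7.55 CPM with Dex and 2.79 and 2.99 CPM in untreated cells, with 1.95% of the rise left. The peroxisomal transporter Abcd2 and the acyl-CoA synthetase Acsbg1 had GW7647 ratios of 0.618 and 0.45. Of 31 tested PPAR targets, 15 were higher and 8 lower with Dex than untreated, and 9 were higher and 0 lower with GW7647 than with Dex alone (2.15% and 7.58% of all tested genes were), and Cpt1a, the gate enzyme of mitochondrial fatty acid uptake, had 139.7 and 132 CPM with Dex plus GW7647, 47.2 and 47.4 CPM with Dex and 54.3 and 54 CPM in untreated cells. It rose with GW7647 (log2 difference to Dex 1.53 ± 0.05, adjusted p = 2.1e-07 by edgeR).

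Transcription factors gave 7 members, Pparg among them. Ikzf2 (Helios), a zinc finger factor of T cells and progenitors, had 9.65 and 8.26 CPM with Dex plus GW7647, 15.7 and 16.6 CPM with Dex and 5.88 and 5.1 CPM in untreated cells. Hopx, a homeodomain protein that does not bind DNA itself, had 8.58 and 8.42 CPM with Dex plus GW7647, 15.1 and 15.4 CPM with Dex and 3.51 and 3.57 CPM in untreated cells. The NF-κB subunit Rel had 1.05 and 1 CPM with Dex plus GW7647, 2.05 and 1.46 CPM with Dex and 0.639 and 0.503 CPM in untreated cells. Prdm1, Hic1 and Tcf7l2 were below 4 CPM with Dex. Of 21 tested genes on the list of NF-κB subunits, inhibitors and targets, 7 were higher and 5 lower with Dex than untreated, and 5 were lower and 0 higher with GW7647 than with Dex (edgeR, adjusted p under 0.05), with Rel and Icam1 as the 2 members. The subunit Rela had 67.4 and 67.1 CPM with Dex plus GW7647, 70.2 and 67.2 CPM with Dex and 54 and 60.5 CPM in untreated cells. Among 53 tested myeloid, AP-1 and other inducible factors, with Ikzf2 the 1 member, 17 were higher and 23 lower with Dex than untreated, and 9 were lower and 1 higher with GW7647 than with Dex.

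Members that restrain the cell cycle were 3 inhibitors of cyclin-dependent kinases. Cdkn1c (p57), a known glucocorticoid target and an imprinted gene, had 1.18 and 0.945 CPM with Dex plus GW7647, 2.66 and 2.37 CPM with Dex and 0.612 and 0.653 CPM in untreated cells. Cdkn2b (p15) had 1.54 and 1.78 CPM with Dex plus GW7647, 3.97 and 3.4 CPM with Dex and 1.65 and 1.41 CPM in untreated cells, with no call against untreated cells (log2 difference -0.01 ± 0.19, adjusted p = 0.98 by edgeR). Its neighbour Cdkn2a had 0.407 and 0.584 CPM with Dex plus GW7647, 1.16 and 0.888 CPM with Dex and 0.266 and 0.302 CPM in untreated cells. Of 35 tested cell cycle inhibitors and apoptosis genes, 18 were higher and 13 lower with Dex than untreated, and 10 were lower and 1 higher with GW7647 than with Dex. Cdkn1c, Cdkn2a and Cdkn2b are counted in the 18 and in the 10 through the choice of members, and the shares over all tested genes were 25.5% higher and 26.0% lower with Dex, and 7.58% lower and 2.15% higher with GW7647. Other imprinted members were Peg10, a gene derived from a retrotransposon, with 15.5 and 15.3 CPM with Dex plus GW7647, 45.8 and 47 CPM with Dex and 10.7 and 11.1 CPM in untreated cells, and Phlda2, with 0.878 and 1.17 CPM with Dex plus GW7647, 3.27 and 2.49 CPM with Dex and 0.878 and 1.01 CPM in untreated cells. Peg10 kept 12.6% and Phlda2 4.18% of the rise.

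Transporters and channels had the largest median share of the rise left of the 13 groups, 54.9% in 5 members, and that share also depends on the Dex ratio. Members of a related kind outside this group kept 24.4% (Abcd2), 21.8% (Pkd1l2), 49.0% (Gm14085) and 63.0% (Clca3a1). Aqp8, a water channel, had 34.9 and 34 CPM with Dex plus GW7647, 55.3 and 54.8 CPM with Dex and 5.35 and 5.75 CPM in untreated cells. Slc28a2, a nucleoside transporter, had 7.98 and 8.56 CPM with Dex plus GW7647, 13.7 and 13.8 CPM with Dex and 1.14 and 0.98 CPM in untreated cells. Its near-identical neighbour Gm14085 was a member too, and reads may be shared between them. Among proteases, Furin, which cuts proproteins to their active form, had 148 and 151 CPM with Dex plus GW7647, 313 and 274 CPM with Dex and 87.2 and 94 CPM in untreated cells. The myeloid aminopeptidase Anpep (CD13) had 3.38 and 3.25 CPM with Dex plus GW7647, 8.56 and 9.05 CPM with Dex and 1.46 and 1.88 CPM in untreated cells. Txnip, an arrestin that restrains thioredoxin and glucose uptake, had 78.5 and 81.4 CPM with Dex plus GW7647, 124 and 123 CPM with Dex and 46 and 50.6 CPM in untreated cells, and Gpx3, a secreted glutathione peroxidase, kept 33.2% of its rise.

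**Figure D5:**
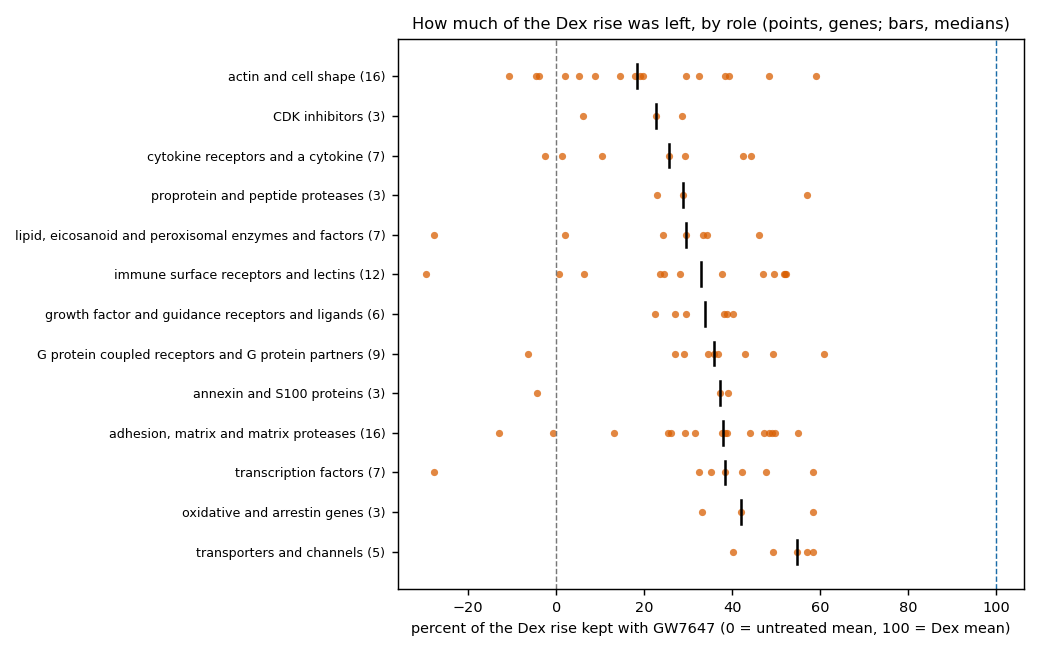
Percent of the Dex rise left with GW7647 for the members of 13 role groups, with the smallest median share at the top and the number of genes in brackets. Dashed lines mark the untreated mean (0) and the Dex mean (100), black bars are medians, and the medians run from 18.4% for actin and cell shape genes to 54.9% for transporters and channels.

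Members with large Dex ratios include genes at well under 1 CPM in untreated cells. Trnp1, a nuclear protein known from neural progenitors, had 4.6 and 4.39 CPM with Dex plus GW7647, 9.21 and 7.81 CPM with Dex and 0.0532 and 0.0251 CPM in untreated cells, a ratio of 61.9 on values with 0.1 added. Tmem51, a membrane protein, had 14.6 and 13.9 CPM with Dex plus GW7647, 24 and 22.6 CPM with Dex and 0.692 and 1.11 CPM in untreated cells. Clca3a1, a secreted protein of the chloride channel accessory family, had 25.3 and 25.9 CPM with Dex plus GW7647, 35.6 and 41.1 CPM with Dex and 4.04 and 3.52 CPM in untreated cells. Pkd1l2, of the polycystin family and among the 10 with the smallest GW7647 ratios, had 1.88 and 2.14 CPM with Dex plus GW7647, 6.81 and 5.99 CPM with Dex and 0.825 and 0.754 CPM in untreated cells. For 28 members an untreated library held fewer than 10 reads, and for 3 a library held none, so the ratios of such genes depend on the 0.1 added.

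Among well-known glucocorticoid receptor targets, more were raised without meeting the limit on GW7647 than were members. The same held over all 649 raised genes, of which 456 did not meet that limit. Of 31 listed, Cdkn1c and Il1r2 were members and 10 more met both limits on Dex: Fkbp5, Tsc22d3, Zfp36l2, Per1, Ddit4, Mt1, Mt2, Socs1, Zbtb16 and Kit. Fkbp5, a chaperone that dampens the receptor, had 129 and 128 CPM with Dex plus GW7647, 129 and 125 CPM with Dex and 37.3 and 38.5 CPM in untreated cells (log2 difference of both drugs to Dex 0.03 ± 0.04, adjusted p = 0.73 by edgeR). Mt2, a metallothionein, had 256 and 233 CPM with Dex plus GW7647, 247 and 238 CPM with Dex and 4.52 and 5.55 CPM in untreated cells (log2 difference of both drugs to Dex 0.02 ± 0.06, adjusted p = 0.88 by edgeR). Tsc22d3 (GILZ) was lower with both drugs than with Dex by a small margin, -0.24 ± 0.05 on the log2 scale (adjusted p = 0.021 by edgeR). Over the 27 tested, 9 were lower and 0 higher with GW7647 than with Dex (7.58% and 2.15% of all tested genes were). The median log2 difference of the 27 was -0.19 (0.00 over all tested genes). Brakes on MAPK, cytokine and G protein signalling held 2 members, Rgs19 and Dusp5, among 34 tested, of which 12 were higher and 11 lower with Dex than untreated, and 8 were lower and 1 higher with GW7647 than with Dex. LXR targets held none among 13 tested, of which 5 were higher and 2 lower with Dex than untreated, and 1 was higher and 0 lower with GW7647 than with Dex. Over all 14125 tested genes 187 were members, so nothing is read from such small counts of members.

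Some members were neighbours in the genome. Of 173 members placed among protein-coding genes in the RefSeq gene order of GRCm38.p6, 20 (11.6%) had a member as the next gene on either side, against 212 of 11875 other tested genes (1.79%). The 10 pairs were Il1r2 and Il1r1, Csf2rb2 and Csf2rb, Nckap1l and Pde1b, Cd200r1 and Cd200r4, Slc28a2 and Gm14085, Cdkn2a and Cdkn2b, Fes and Furin, Mmp2 and Lpcat2, Pkd1l2 and Bco1, and Gpr174 and Itm2a. Several are copies of an ancestral gene, and Il1rl2 and Il1rl1, left out by name, follow Il1r1 to make a run of 4. The partners in the pairs of Fes, Nckap1l, Mmp2, Pkd1l2 and Gpr174 belong to unrelated families. No test was made of these shares, in which copies that share reads, and overlapping genes, are counted as well.

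Among the genes left out by name, the histamine-making enzyme Hdc averaged 118.8 CPM with Dex plus GW7647, 207 CPM with Dex and 38.0 CPM in untreated cells, and Il1rl1, the interleukin 33 receptor, 107 CPM with Dex plus GW7647, 169.6 CPM with Dex and 21.04 CPM in untreated cells.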

How the data were processed

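RNA-seq of 6 polyA libraries of mouse fetal liver BFU-E was analysed, 2 for each of the groups Dex plus GW7647, Dex and untreated, grouped by the labels. Per the submitters' processing notes, reads went through TopHat 1.4.1, HTSeq and DESeq on mm9 and NCBIM37, and the roles of these tools are not given in the sources used here. The deposited tables hold whole-number read counts per Ensembl gene and library. They also hold a normalized signal per library, a fold ratio of group means and p-values by the authors, none of which was used here. Whether reads were counted by strand is not stated, so overlapping antisense genes are uncertain. The counts of the Dex plus GW7647 libraries are identical in both deposited tables. Symbols were joined by Ensembl identifier and found for 32897 of 37620 genes and for 182 of 187 members.

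CPM used column sums, and 0.1 was added for the choice of members. Levels are per library, and 95% counting intervals are not given, since the spread of 2 libraries is shown in full. Tests used edgeR 4.0.16 in R 4.3.3: filterByExpr with a minimum count of 10 (14125 genes), TMM scaling, a quasi-likelihood fit on all 6 libraries with group as its only term, and Benjamini-Hochberg adjustment over all tested genes, with a threshold of 0.05. Log2 differences are given ± SE, and the script was tested on simulated counts. Counts between the 2 libraries of a group differed by more than sampling noise in every group (chi-square per degree of freedom of 3.67, 19.3 and 7.99 for Dex plus GW7647, Dex and untreated). Promoter windows came from RefSeq on GRCm38.p6, a later build than that of the counts, and served for their letters alone.

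Members and gene lists were chosen with earlier results of these data known. Genes named by rule were the 10 members highest in CPM with Dex, the 10 with the largest Dex ratio and the 10 with the smallest GW7647 ratio (at least 5 CPM with Dex), members on a list, up to 5 called in each direction against untreated cells, and those next to the limits. Partners and genes by role were named after their values were seen, members without a symbol are not named, and 1 result that the rule names is not reported here. Alternatives were total-count scaling, a looser filter, limma-trend (limma 3.58.1), DESeq2 1.42.0, a replicate block, other limits for members and leaving out each library.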

Additional observations from a re-analysis of the deposited data

How the results depend on the processing

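The number of members was 107 with 1 CPM added in place of 0.1, 104 with at least 5 CPM required with Dex, and 118 with both limits required in every combination of single libraries. TMM-scaled library sizes gave 165 members, and leaving out each library gave 184 to 215. The median share of the rise left was 34.1% with TMM-scaled sizes and 34.6% to 36.5% without each library in turn. Against untreated cells, members called lower numbered 2 with total counts, 4 with any gene with a count, 1 with DESeq2, and 2 to 7 without each library, while members called higher numbered 116 to 148 over all the alternatives run. The labels number the libraries of every group but do not say that a number pairs them, and deviations of same-numbered libraries correlated at -0.21, -0.05 and 0.15 over the 3 pairs of groups. With a replicate block, 132 members were higher and 4 lower than untreated, 187 were higher with Dex and 148 lower with GW7647 than with Dex. For the 56 genes followed singly, 586 of 672 alternatives kept direction and side of the threshold, 63 lost the call, 11 gained one and 12 reversed, all in genes not called to begin with. Reversed log2 differences to untreated cells were 0.0622 for Chst15, 0.0255 for Il5ra and 0.113 for Cdkn2b with total counts, and for Cdkn2b also 0.0119 with any gene with a count and 0.0006 with limma-trend. Without each library in turn they ran from -0.214 to 0.109 for Chst15, from -0.483 to 0.0806 for Il4, from -0.1999 to 0.0335 for Il5ra and from -0.117 to 0.111 for Cdkn2b. Where 1 library of a group was left, it was taken to vary like the other groups. The cause of these shifts was not tested. Depth limits the 28 members with fewer than 10 reads in an untreated library.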
